A study of Mus musculus with 5 samples.

Results

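The complement genes of macrophages examined here were *C1qa*, *C1qb*, *C1qc*, *C3*, *C3ar1*, *C5ar1* and *Cfp*, that is, 7 of the 55487 genes in the deposited count table, and they were chosen by symbol. They were read from RNAseq of aortic macrophages of male mice, with 2 libraries labelled WT (Zeb1WT/ApoeKO) and 3 labelled KO (Zeb1∆M/ApoeKO). All mice lacked *Apoe*, carried a floxed *Zeb1* exon on both alleles, and received chow up to an age of 8 weeks followed by 10 weeks of Western diet. The Zeb1∆M/ApoeKO mice also carried Cre in the *Lyz2* (*LysM*) locus, which directs the deletion of *Zeb1* to cells that express *Lyz2*, a group wider than macrophages, and the extent of deletion in these libraries is not known from their counts. The cells were viable, CD45-positive and F4/80-positive, and the study's methods add CD11b. According to the methods, each genotype's macrophages were mixed from 3 mice, and libraries were made in triplicate with an ultra-low-input kit that amplifies the cDNA of few cells. The study describes its replicates in general as biologically independent, while the mixing leaves unclear which mice each library holds, so p-values here measure the spread between these libraries, part of which may be technical.

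Complement is a cascade of plasma proteins that marks particles and dying cells for uptake by phagocytes. Its classical arm starts with C1q, a large protein built from equal numbers of A, B and C chains, and tissue macrophages are a main source of C1q, unlike most complement proteins, which come from the liver. The arms meet at C3, properdin (*Cfp*) stabilises the enzyme that cleaves C3 in the alternative arm, and the fragments C3a and C5a signal through the receptors C3AR1 and C5AR1. In atherosclerotic plaques, C1q is known as a product of resident-like and foamy macrophages and assists the clearance of apoptotic cells.

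The libraries had total counts of 20118545 to 50649912, and 3 counts, taken as the floor of detection, were 0.0597 to 0.248 CPM (counts relative to the TMM-scaled library total, the scale of all levels below unless stated). Such floors, and the intervals given below, cover counting error only, since amplified reads are not independent molecules. *Zeb1*, the targeted gene, had 0 counts in every library but Zeb1∆M/ApoeKO replicate 1, which had 22, and so did not check the labels. *Lyz2*, which drives Cre, was at 21582 and 22555 CPM in the Zeb1WT/ApoeKO libraries and at 13335, 20037 and 17312 CPM in the Zeb1∆M/ApoeKO libraries. The genotypes did not overlap on this scale, as for 11.2% of all tested genes, and overlapped when scaled by total counts. *Apoe* had 0 to 86 counts. Of 14 macrophage markers, 11 to 13 exceeded the floor in each library, among them *Adgre1* (F4/80), with 1068 to 38190 counts. Zeb1∆M/ApoeKO replicate 1 stood apart from the other 4 libraries. It had 20919 genes with at least 1 count, against 7395 to 10689, and 9.83% of the 7905 tested genes with at least 100 counts, against 20.2% to 48.4%. It also held the haemoglobin genes *Hba-a1* and *Hba-a2* at 60292 and 133027 counts, which were at 0 in the other 4. Its TMM factor was 0.515, against 1.03 to 1.42, which raises its CPM above those from total counts. Mitochondrially encoded genes made up 4.61% of its counts and 3.35% of those of Zeb1WT/ApoeKO replicate 1, against 1.24% to 1.6% in the remaining libraries. Zeb1WT/ApoeKO replicate 1 also had the lowest total count, and its share of 20.2% with at least 100 counts was below the 36.7% to 48.4% of those libraries. Fold changes, spreads and correlations that rest on Zeb1∆M/ApoeKO replicate 1 are given with and without it.

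The 3 C1q genes lie next to each other on the minus strand of chromosome 4 of GRCm38, in a stretch of 18675 bases from 136880129 to 136898803. In the order of the coordinates they are *C1qb* (ENSMUSG00000036905.8, 136880129 to 136886187), *C1qc* (ENSMUSG00000036896.5, 136889804 to 136893065) and *C1qa* (ENSMUSG00000036887.5, 136895917 to 136898803), each with 3 exons, and no other annotated gene overlaps them. Promoters of the 2 C1q genes listed in the reference table, and of *C3ar1* (ENSMUSG00000040552.8, chromosome 6, 122847138 to 122856161), are shown because these genes carry the results below. Each runs from 250 bases before to 50 bases after the RefSeq start of GRCm38.p6, on the minus strand, with matches to the 4 motifs searched in capitals.
C1qb, chr4:136886151-136886450: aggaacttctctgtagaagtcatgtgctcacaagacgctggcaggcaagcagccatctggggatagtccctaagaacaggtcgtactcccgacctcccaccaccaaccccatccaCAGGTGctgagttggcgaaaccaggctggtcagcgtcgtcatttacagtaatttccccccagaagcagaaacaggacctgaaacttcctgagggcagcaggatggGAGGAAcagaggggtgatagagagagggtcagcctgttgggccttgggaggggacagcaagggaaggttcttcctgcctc
C1qc, chr4:136892865-136893164: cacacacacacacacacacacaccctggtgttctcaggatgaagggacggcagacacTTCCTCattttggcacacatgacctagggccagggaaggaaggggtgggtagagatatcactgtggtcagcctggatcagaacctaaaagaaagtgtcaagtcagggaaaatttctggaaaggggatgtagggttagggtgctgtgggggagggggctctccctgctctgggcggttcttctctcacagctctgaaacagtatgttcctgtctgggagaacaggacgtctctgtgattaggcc
C3ar1, chr6:122856108-122856407: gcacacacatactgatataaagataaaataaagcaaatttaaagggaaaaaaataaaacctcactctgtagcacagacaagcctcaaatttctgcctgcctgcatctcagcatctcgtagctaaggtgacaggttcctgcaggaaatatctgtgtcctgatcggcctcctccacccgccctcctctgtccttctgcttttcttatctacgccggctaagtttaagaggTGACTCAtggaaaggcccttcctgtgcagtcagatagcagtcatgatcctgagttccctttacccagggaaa

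The motifs were searched on both strands, do not overlap each other in these windows, and are letter matches only, with positions given for the first base of the match. CACCTG, the E-box that ZEB1 is known to bind, occurred in *C1qb* (at −135 from the start, where the printed strand reads CAGGTG) and in no other of the 6 complement promoters in the table, beside 20.2% of all 32851 promoters. GAGGAA, a purine-rich core of sites for ETS factors such as PU.1, occurred in *C1qb* (at −30), *C1qc* (at −193) and *Cfp*, beside 28.3% of all promoters. TGAGTCA, the AP-1 site, occurred in *C3ar1* (at −22), beside 5.2%, and CACGTG occurred in none of the 6, beside 7.15%.

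*C1qb*, which encodes the B chain, was the complement gene with the highest level in every library. It had 38760 and 191331 counts in Zeb1WT/ApoeKO replicates 1 and 2, and 398502, 177721 and 232428 counts in Zeb1∆M/ApoeKO replicates 1, 2 and 3. After scaling these were 1403 and 5552 CPM, and 32883, 4155 and 4626 CPM. Zeb1WT/ApoeKO replicate 1 was the lowest and Zeb1∆M/ApoeKO replicate 1 the highest, while Zeb1∆M/ApoeKO replicates 2 and 3 fell between both Zeb1WT/ApoeKO libraries. Ranked by counts per kilobase of exon, *C1qb* was at rank 45 and 7 in the Zeb1WT/ApoeKO libraries and at rank 5, 15 and 16 in the Zeb1∆M/ApoeKO libraries, out of 55141 genes.

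*C1qa*, the A chain gene, was at 0 counts in Zeb1WT/ApoeKO replicate 1 and at 53826 in replicate 2. In Zeb1∆M/ApoeKO replicates 1, 2 and 3 it had 5, 48430 and 77519 counts. The corresponding levels were 0 and 1562 CPM, and 0.413, 1132 and 1543 CPM. Both replicate 1 libraries were thus near or at the floor, and the other 3 lay within 1132 to 1562 CPM.

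*C1qc*, the C chain gene, had 8364 and 28501 counts in the Zeb1WT/ApoeKO libraries, against 257, 85438 and 80769 in the Zeb1∆M/ApoeKO libraries, or 303 and 827 CPM, and 21.2, 1998 and 1608 CPM. For this gene Zeb1∆M/ApoeKO replicate 1 was the lowest, and the other two Zeb1∆M/ApoeKO libraries were above both Zeb1WT/ApoeKO libraries.

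The 3 chain genes therefore did not keep a constant ratio, although their products enter C1q in equal numbers. Of the summed C1q counts of a library, *C1qb* made up 82.3% (95% exact binomial interval 81.9% to 82.6%) and 69.9% (69.7% to 70.1%) in the Zeb1WT/ApoeKO libraries. In the Zeb1∆M/ApoeKO libraries it made up 99.9% (99.9% to 99.9%), 57.0% (56.9% to 57.2%) and 59.5% (59.3% to 59.6%). *C1qa* made up 19.7% (19.5% to 19.8%) in Zeb1WT/ApoeKO replicate 2, 15.5% (15.4% to 15.7%) in Zeb1∆M/ApoeKO replicate 2 and 19.8% (19.7% to 20.0%) in Zeb1∆M/ApoeKO replicate 3. In Zeb1WT/ApoeKO replicate 1 it was 0 of 47124 counts, with an upper limit of 0.00783%, and in Zeb1∆M/ApoeKO replicate 1 it was 0.00125% (0.000407% to 0.00293%). *C1qc* made up 17.7% (17.4% to 18.1%) and 10.4% (10.3% to 10.5%) in the Zeb1WT/ApoeKO libraries, and 0.0644% (0.0568% to 0.0728%), 27.4% (27.3% to 27.6%) and 20.7% (20.5% to 20.8%) in the Zeb1∆M/ApoeKO libraries. Corrected for exon length, *C1qa* stood at 0.294, 0.285 and 0.349 of *C1qb* in Zeb1WT/ApoeKO replicate 2 and Zeb1∆M/ApoeKO replicates 2 and 3, and at 0 and 1.31e-05 in the replicate 1 libraries.

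**Figure D1:**
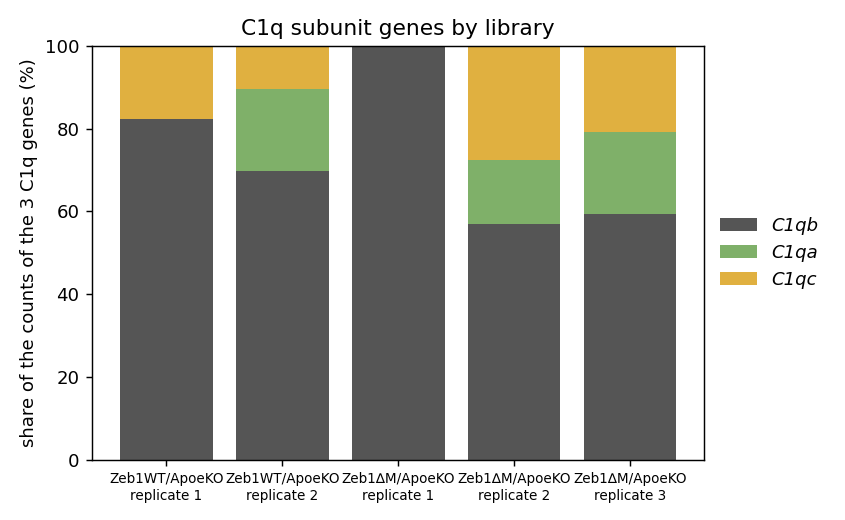
Bars show, for each of the 5 libraries (x axis), the share in percent of the summed *C1qa*, *C1qb* and *C1qc* counts that fell on each gene (y axis). *C1qa* takes 15.5% to 19.8% in 3 libraries and is absent or nearly so in both replicate 1 libraries, where *C1qb* takes 82.3% and 99.9%.

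Summed over the chains, C1q counts were 0.234% and 0.791% of all counts in the Zeb1WT/ApoeKO libraries and 1.64%, 0.871% and 0.771% in the Zeb1∆M/ApoeKO libraries. In 3 of the libraries, Zeb1WT/ApoeKO replicate 2 and Zeb1∆M/ApoeKO replicates 2 and 3, the sums were close, at 7941, 7286 and 7777 CPM. Zeb1WT/ApoeKO replicate 1 had 1706 CPM and Zeb1∆M/ApoeKO replicate 1 had 32905 CPM. The 14 macrophage markers had summed levels of 40901 to 61468 CPM, to which *Lyz2* gave 13335 to 22555 CPM. Single markers varied far more than their sum, such as *Cd68* at 0 to 1296 CPM, *Cd14* at 2.72 to 3665 CPM and *Csf1r* at 2.06 to 947 CPM, which shows that the sum hides differences between libraries. Markers of resident-like macrophages (highest for *Pf4*), to which C1q is often tied, had summed levels of 969 and 2574 CPM in the Zeb1WT/ApoeKO libraries and 1066, 5433 and 5881 CPM in the Zeb1∆M/ApoeKO libraries. Those of foamy macrophages (highest for *Lgals3*) had 1313 and 2243 CPM, and 28.2, 3371 and 2819 CPM. In Zeb1∆M/ApoeKO replicate 1, *Cbr2* at 816 CPM and *Pf4* at 247 CPM made up nearly all of the resident-like sum. *Mrc1* was at 1.98 CPM there, and *Lyve1* and *Folr2* were at 0. Of its foamy sum, *Lpl* gave 23.4 CPM, while *Lgals3* and *Cd9* were at 0. The part of these markers in the C1q values was not tested. In such bulk libraries, fewer cells of a type and less RNA per cell cannot be told apart.

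*C3* (ENSMUSG00000024164.15, chromosome 17, 57203970 to 57228136), the component on which all arms converge, was seen in 1 library of each genotype. It had 7887 counts (229 CPM) in Zeb1WT/ApoeKO replicate 2 and 22998 counts (458 CPM) in Zeb1∆M/ApoeKO replicate 3, and 0 counts in the other 3 libraries. At 0 counts, a level of up to the floor, 0.0701 to 0.248 CPM in those libraries, was not detectable. The genotypes overlapped. T cell markers (highest for *Lck*), which are not macrophage genes, were also at their highest summed levels in the same libraries, with 4324 CPM in Zeb1WT/ApoeKO replicate 2 (all 6 markers above the floor) and 964 CPM in Zeb1∆M/ApoeKO replicate 3 (4 of 6), against 1.65 to 362 CPM in the other 3. The single markers did not all follow this order, since Zeb1∆M/ApoeKO replicate 2, with *C3* at 0 counts, also had 4 of 6 above the floor and held *Cd3g* at 310 CPM, against 0.0398 CPM in replicate 3. A sort for CD11b and F4/80 would remove T cells. Fibroblasts, which can also make *C3* and which a sort on CD45 would remove, had summed marker levels of 0 and 2.25 CPM in those 2 libraries. The part of T cells or fibroblasts in the *C3* values was not tested.

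*Cfp* (ENSMUSG00000001128.7, chromosome X, 20925454 to 20931555), which encodes properdin, had 0 and 44601 counts in the Zeb1WT/ApoeKO libraries, against 0, 2695 and 2492 in the Zeb1∆M/ApoeKO libraries. Its levels were 0 and 1294 CPM, and 0, 63.0 and 49.6 CPM. It was undetected in both replicate 1 libraries, and its highest value was in Zeb1WT/ApoeKO replicate 2, against 63.0 CPM in the next highest library. The genotypes overlapped.

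Of the receptors, *C3ar1*, the receptor of C3a, varied most. It had 13 and 25333 counts in the Zeb1WT/ApoeKO libraries, against 329186, 48 and 40621 in the Zeb1∆M/ApoeKO libraries, or 0.471 and 735 CPM, and 27164, 1.12 and 809 CPM. Zeb1∆M/ApoeKO replicate 1 held the highest value and ranked *C3ar1* 41 of 55141 genes per kilobase, whereas Zeb1∆M/ApoeKO replicate 2 was close to Zeb1WT/ApoeKO replicate 1 at the low end. Zeb1WT/ApoeKO replicate 2 and Zeb1∆M/ApoeKO replicate 3 lay between them, at 735 and 809 CPM. From total counts alone, the level in Zeb1∆M/ApoeKO replicate 1 was 13507 CPM.

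*C5ar1* (ENSMUSG00000049130.6, chromosome 7, 16246743 to 16259540), the receptor of C5a, was above the floor in 4 libraries, at low levels. It had 144 and 1529 counts in the Zeb1WT/ApoeKO libraries, against 11, 1259 and 1 in the Zeb1∆M/ApoeKO libraries, or 5.21 and 44.4 CPM, and 0.908, 29.4 and 0.0199 CPM. The last of these was below the floor. Neutrophils, which a sort on F4/80 would remove, also express *C5ar1*. Their markers (highest for *S100a8*) had summed levels of 2617 and 883 CPM in the Zeb1WT/ApoeKO libraries and 2735, 1256 and 139 CPM in the Zeb1∆M/ApoeKO libraries, with 2 to 4 of 9 markers above the floor per library and *Mpo*, *Elane*, *Camp* and *Ngp* at 0 counts in all 5. The sum in Zeb1∆M/ApoeKO replicate 1 was nearly all *S100a8*, at 2734 CPM, while *Csf3r* was at 1.19 and 212 CPM in the Zeb1WT/ApoeKO libraries and at 1.24, 415 and 99.0 CPM in the Zeb1∆M/ApoeKO libraries. Their part in the *C5ar1* values was not tested.

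**Figure D2:**
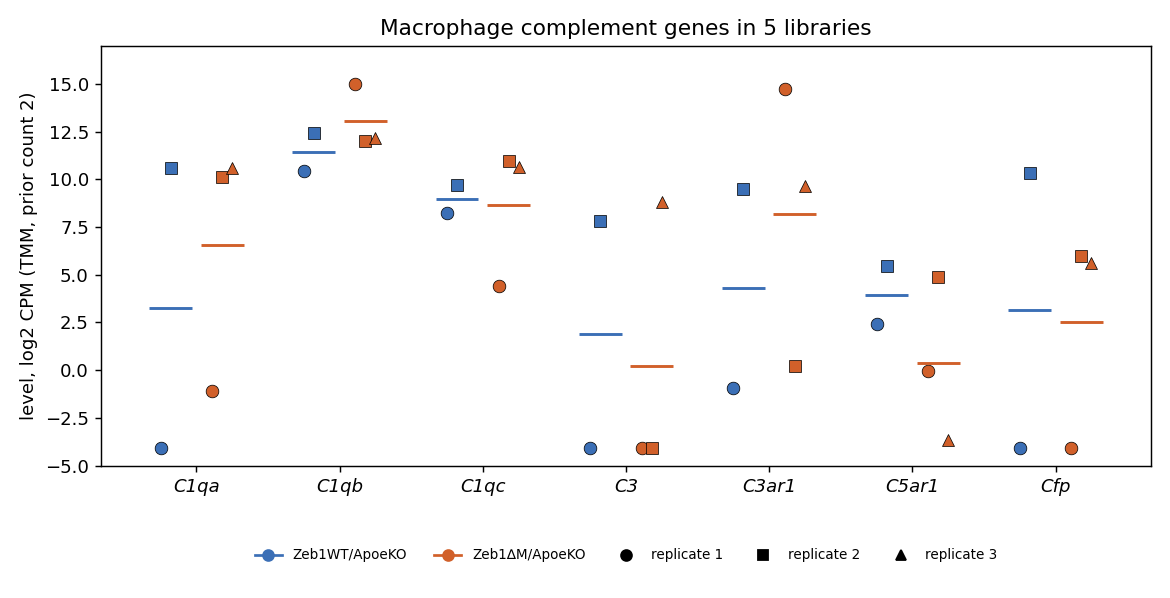
Points show the level of each of the 7 complement genes in log2 CPM (y axis, TMM scaling, prior count 2) in each library, coloured by genotype and shaped by replicate, with lines at the mean of each genotype. The genotypes overlap for all 7 genes, and within a genotype *C1qa*, *C3*, *C3ar1* and *Cfp* spread over 10.04 to 14.67 on this log2 scale.

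To compare genes, counts were divided by exon length and scaled to the same sum in each library. On this per-kilobase scale the median over the 5 libraries was 9680 for *C1qb*, 2759 for *C1qa*, 1042 for *C1qc*, 411 for *C3ar1*, 62.6 for *Cfp*, 5.41 for *C5ar1* and 0 for *C3*. *C1qb* exceeded the other 6 genes in all 5 libraries, with values of 3438 to 26083. The remaining order did not hold across libraries. *C1qc* exceeded *C1qa* in both replicate 1 libraries (418 against 0, and 9.48 against 0.342), and *C3ar1* ranged from 0.291 to 5445.

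All 7 genes were above the floor in Zeb1WT/ApoeKO replicate 2 only. Zeb1WT/ApoeKO replicate 1 had 4 of them above the floor, and Zeb1∆M/ApoeKO replicates 1, 2 and 3 had 5, 6 and 6. Over all tested genes, 60.9% and 60.4% were above the floor in the Zeb1WT/ApoeKO libraries, and 77.6%, 49.4% and 62.3% in the Zeb1∆M/ApoeKO libraries. The difference between the highest and lowest library of a genotype had a median over the 7 genes of 10.44 for Zeb1WT/ApoeKO and 10.04 for Zeb1∆M/ApoeKO on the log2 CPM scale, beside 3.42 and 6.21 over all tested genes. For all 7 genes the difference in mean log2 CPM between genotypes was smaller than the spread among the Zeb1∆M/ApoeKO libraries, which also held for 90.7% of all tested genes. The values of Zeb1∆M/ApoeKO depended on its replicate 1. Without that library, the median spread over the 7 genes was 0.45 in Zeb1∆M/ApoeKO, beside 1.79 over all tested genes, and the difference was smaller than the spread for 3 of the 7 genes (*C3*, *C3ar1* and *C5ar1*) and for 50.4% of all tested genes.

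The comparison of genotypes asked whether loss of *Zeb1* in myeloid cells altered these genes. edgeR's quasi-likelihood test covered 7905 genes, of which 0 (0%) had an adjusted p under 0.05 (Benjamini-Hochberg) and 86 (1.09%) an unadjusted p under 0.05. Each of the 7 complement genes was tested, and 0 were called. Only *C3ar1* had an unadjusted p under 0.05. With RLE size factors or total counts, 0 of the 7 had one, and with both replicate 1 libraries left out 1 had one, *Cfp* in place of *C3ar1*. With DESeq2's default options, the study's tool, 790 of 6519 genes with an adjusted p were called (12.1%; 6.87% higher and 5.25% lower in the Zeb1∆M/ApoeKO libraries), and of the complement genes 0 of 5 with an adjusted p were, with 0 at an unadjusted p under 0.05. It gave no p to *C3* and *C3ar1*. The CPM of the genotypes overlapped for all 7 genes, beside 11.2% of the tested genes without overlap (6.68% higher and 4.54% lower in the Zeb1∆M/ApoeKO libraries).

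Mean *C3ar1* was 368 ± 519 CPM in Zeb1WT/ApoeKO (SD, n = 2) and 9324 ± 15454 CPM in Zeb1∆M/ApoeKO (SD, n = 3). Its log2 fold change, Zeb1∆M/ApoeKO relative to Zeb1WT/ApoeKO, was 4.66 (standard error 2.27, edgeR's quasi-likelihood test, unadjusted p = 0.0396, adjusted p = 1). The difference rested on Zeb1∆M/ApoeKO replicate 1, since without that library it was 0.07 (standard error 2.85). With both replicate 1 libraries left out it was −0.70 (standard error 1.88).

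Mean *C1qb* was 3478 ± 2934 CPM in Zeb1WT/ApoeKO (SD, n = 2) and 13888 ± 16452 CPM in Zeb1∆M/ApoeKO (SD, n = 3). The fitted log2 difference was 2.0 with a standard error of 1.71 (adjusted p = 1, edgeR). Without Zeb1∆M/ApoeKO replicate 1 it was 0.22 (standard error 0.70). With both replicate 1 libraries left out it was −0.19 (standard error 0.30), where the lone Zeb1WT/ApoeKO library is assumed to vary as the Zeb1∆M/ApoeKO libraries do. The remaining 3 libraries held *C1qb* within 4155 to 5552 CPM. The libraries left out had its lowest and highest levels, at 1403 and 32883 CPM, so a narrower range follows from leaving them out.

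With all 5 libraries, the other two C1q genes differed by less than their standard errors. *C1qa* had 781 ± 1104 CPM and 892 ± 799 CPM in Zeb1WT/ApoeKO (SD, n = 2) and Zeb1∆M/ApoeKO (SD, n = 3), with a log2 fold change of 0.19 (standard error 2.93). Without Zeb1∆M/ApoeKO replicate 1 alone it was 0.73 (standard error 1.99), and with both replicate 1 libraries left out it was −0.07 (standard error 0.86). *C1qc* had 565 ± 371 CPM and 1209 ± 1047 CPM, with a log2 fold change of 1.10 (standard error 2.94), and 1.28 (standard error 0.87) with both replicate 1 libraries left out. Without Zeb1∆M/ApoeKO replicate 1 alone, *C1qc* was at 1.54 (standard error 1.39). The adjusted p from edgeR was 1 for *C1qa* and *C1qc* with all 5 libraries, and 1 and 0.742 without the replicate 1 libraries.

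*Cfp* had the lowest fitted value of the 7 genes, with means of 647 ± 915 CPM and 37.5 ± 33.2 CPM and a fitted log2 difference of −4.11 (standard error 3.93, adjusted p = 1 from edgeR). With both replicate 1 libraries left out it was −4.37 (standard error 2.16, adjusted p = 0.742 from edgeR). Without Zeb1WT/ApoeKO replicate 2, where the remaining Zeb1WT/ApoeKO library was at 0 counts, the fitted value turned positive, and under the other alternatives it lay between −4.99 and −3.57. *C5ar1* had 24.8 ± 27.7 and 10.1 ± 16.7 CPM with a log2 fold change of −1.29 (standard error 4.54), and *C3* had 114 ± 162 and 153 ± 264 CPM with 0.42 (standard error 4.40), both with an adjusted p of 1. In all, 5 of the 7 genes had a positive and 2 a negative fitted log2 fold change, with a median of 0.42. Over all 7905 tested genes, 4811 were positive and 3094 negative, with a median of 0.78. By the difference in mean log2 CPM, *C1qc* (−0.29) and *C3* (−1.65) were instead lower in the Zeb1∆M/ApoeKO libraries, while the other 5 genes kept the sign of their fitted value.

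The median over all tested genes depended on the scaling and on single libraries. It was 0.78 with TMM, 1.24 with RLE size factors and 0.13 with total counts only. With TMM it was 0.14 without Zeb1∆M/ApoeKO replicate 1, 1.53 without Zeb1WT/ApoeKO replicate 1 and 3.62 without Zeb1WT/ApoeKO replicate 2. These were taken over those of the 7905 genes that each fit tested. With all 5 libraries and relative to the median of each of these scalings, *C1qb* was at 1.22, 2.16 and 1.06 and *C3ar1* at 3.88, 5.43 and 3.53. *C5ar1* was at −2.07, −2.43 and −1.27 and *Cfp* at −4.89, −5.14 and −4.12. *C1qa* was at −0.59, −0.85 and 0.15, *C3* at −0.37, −0.64 and 0.25, and *C1qc* at 0.32, −0.43 and 0.96, so that the sign of these 3 genes relative to all genes depended on the scaling. Without Zeb1∆M/ApoeKO replicate 1, the fitted values of *C3ar1* and *C1qb* were 0.07 and 0.22, close to the median of 0.14, and that of *Cfp* was −3.57.

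**Figure D3:**
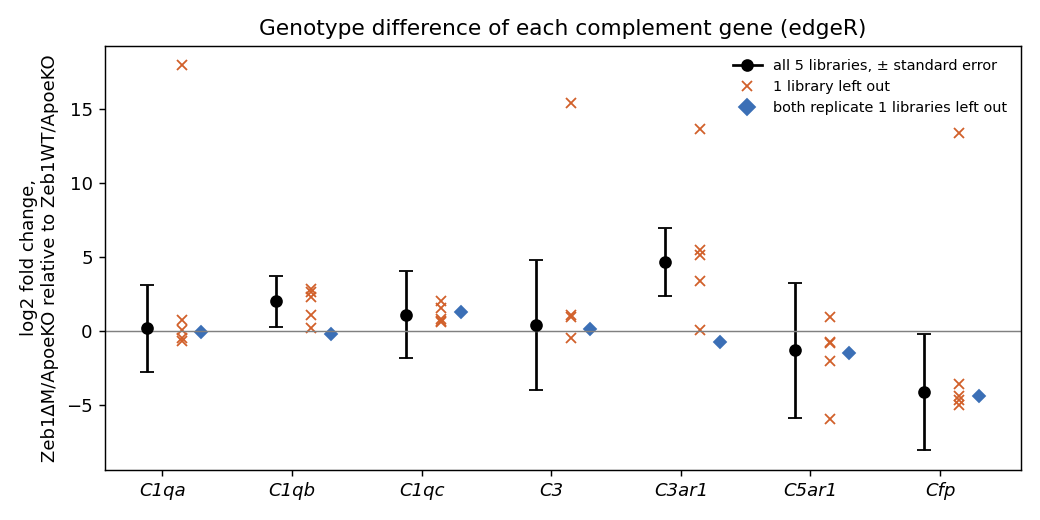
The y axis gives the edgeR log2 fold change of Zeb1∆M/ApoeKO relative to Zeb1WT/ApoeKO for each complement gene with all 5 libraries (black points, bars show ± 1 standard error), with 1 library left out (crosses) and with both replicate 1 libraries left out (diamonds). *C3ar1* moves from 4.66 to −0.70 and *C1qb* from 2.0 to −0.19 when both replicate 1 libraries are left out. The crosses from 13.36 to 17.93 are fits without Zeb1WT/ApoeKO replicate 2.

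Of 48 other complement genes, 13 were at 0 counts in all 5 libraries and 14 had at least 100 counts in any library, 7 of them in a single library. None of the 48 exceeded the floor in all 5 libraries. edgeR tested 12 and called 0, with 0 at an unadjusted p under 0.05 and 6 fitted higher and 6 lower in the Zeb1∆M/ApoeKO libraries. DESeq2 called 0 of 8 with an adjusted p. Of the 35 genes it fitted, 2 had an unadjusted p under 0.05, beside 1799 of all 27091 genes fitted.

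Among genes of the classical arm, *C4b*, whose product forms part of the C3 convertase, had 9975 and 10384 counts in the Zeb1WT/ApoeKO libraries, against 2, 0 and 632 in the Zeb1∆M/ApoeKO libraries. It was 1 of 2 genes among the 12 tested whose genotypes did not overlap, beside 11.2% of all tested genes, the other being *Colec12*, a scavenger receptor with a collagen domain, at no more than 3.71 CPM. For *Colec12* this rested on 2 counts in Zeb1∆M/ApoeKO replicate 2 against 1 in Zeb1WT/ApoeKO replicate 1, both below the floor, so that a difference between these libraries was not detectable. For *C4b*, edgeR gave a log2 fold change of −6.28 (standard error 5.02) and 1 as the adjusted p. *C4b* has a near-identical copy, *C4a*, with 0 to 6 counts, so that reads could be split between them. *C2*, which joins C4b in the convertase, had 2601 counts in Zeb1WT/ApoeKO replicate 2, 27 in Zeb1∆M/ApoeKO replicate 3 and 0 in the other 3 libraries. The C1q-associated proteases *C1ra* and *C1s1* did not exceed 5 and 16 counts.

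The lectin *Fcna* (13097 counts), the alternative-arm protease *Cfb* (1751 counts) and *C8g* (11379 counts), whose product belongs to the membrane attack complex, were each counted in Zeb1∆M/ApoeKO replicate 3 and were at 0 to 5 counts elsewhere. *Hc*, which encodes C5, did not exceed 12 counts, and *C6*, *C7* and *C9* did not exceed 1.

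Among regulators, *Cr1l*, the rodent membrane regulator Crry, had 1 and 840 counts in the Zeb1WT/ApoeKO libraries, against 12, 14690 and 5730 in the Zeb1∆M/ApoeKO libraries (log2 fold change 3.65, standard error 5.48, adjusted p = 1 from edgeR). It was again lowest in the replicate 1 library of each genotype. *Serping1*, the C1 inhibitor, was at 0 counts in all 5 libraries.

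Of the receptors outside the 7 genes, *Itgb2*, the shared beta chain of complement receptors 3 and 4, had 0 and 18388 counts in the Zeb1WT/ApoeKO libraries, against 6, 2253 and 44584 in the Zeb1∆M/ApoeKO libraries. Its partner *Itgam* (CD11b) had 441 and 3074 counts, and 0, 33 and 1988 counts, although CD11b was used in the sort according to the methods. *Calr*, which binds C1q on cell surfaces, had 0 and 8184 counts, and 0, 9618 and 462 counts. *Cd93* had 16750 counts in Zeb1∆M/ApoeKO replicate 2 and no more than 20 in the other 4, and *Vsig4*, a C3b receptor of resident macrophages, was at 0 in all 5. The adjusted p was 1 for each of the 6 receptor genes tested with edgeR.

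**Figure D4:**
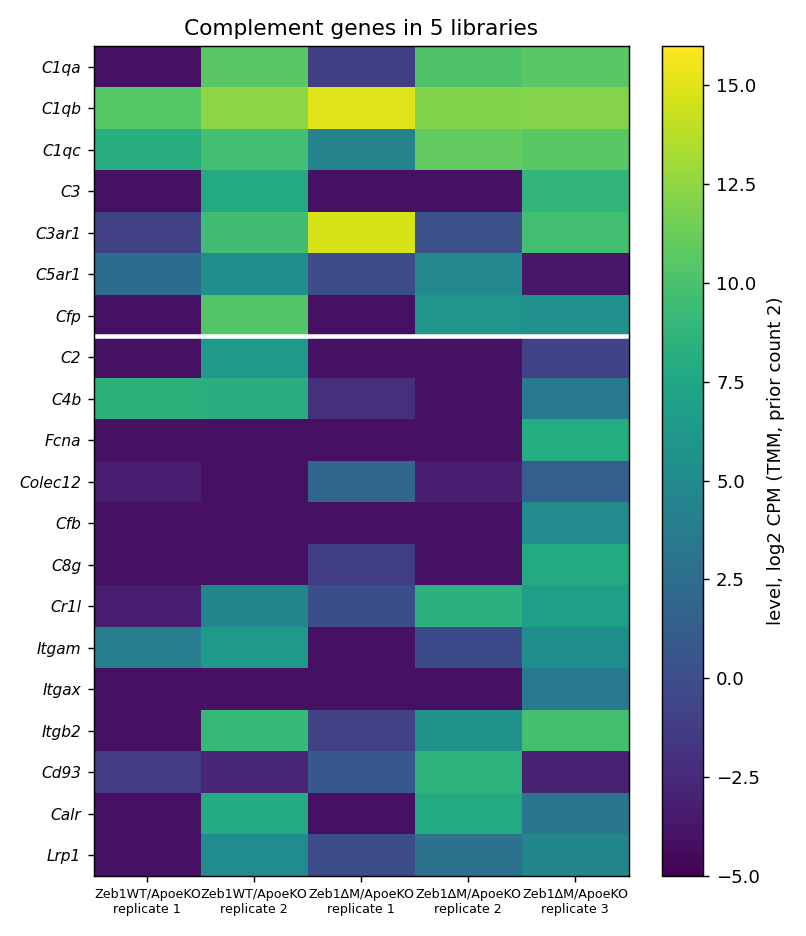
Colour gives the level in log2 CPM (TMM, prior count 2) of the 7 macrophage complement genes (above the white line) and of 13 of the 14 other complement genes with at least 100 counts in any library (below it), 1 row per gene and 1 column per library. *C1qb* is bright in all 5 columns, whereas both replicate 1 columns are dark for *C1qa*, *C3*, *Cfp*, *Itgb2* and *Calr*.

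The genes most like the C1q sum, by Pearson's r of log2 CPM over the 5 libraries among 1572 other tested genes with a mean of at least 100 CPM, were *Cyba* (r = 0.9947), a subunit of the phagocyte NADPH oxidase, *Tmem134* (r = 0.9946) and *Ppib* (r = 0.987), a prolyl isomerase of the endoplasmic reticulum. *Cyba* had 8055 and 55231 counts in the Zeb1WT/ApoeKO libraries, against 101468, 67306 and 106929 in the Zeb1∆M/ApoeKO libraries. Those most like *C3ar1* were *Nosip* (r = 0.9959), *Tpd52l2* (r = 0.9935) and *Usp3* (r = 0.9926). All 3 of these were at 0 counts in Zeb1WT/ApoeKO replicate 1 and Zeb1∆M/ApoeKO replicate 2, the same libraries in which *C3ar1* had 13 and 48 counts. Of the 1572 genes compared, 60 for the C1q sum and 33 for *C3ar1* had r over 0.9, and with 5 libraries these values describe the libraries only. Without Zeb1∆M/ApoeKO replicate 1, which held the highest C1q sum and *C3ar1* level, r over 4 libraries was 0.99 to 0.997 for the 3 genes of the C1q sum. For those of *C3ar1* it was 0.989 to 0.996. The genes were chosen by r in the same libraries, so these values are no separate check. For the C1q sum they rested on Zeb1WT/ApoeKO replicate 1, at 1706 CPM against 7286 to 7941 CPM, where *Tmem134* and *Ppib* had 10 counts each. *C3ar1* was at 0.471 and 1.12 CPM in Zeb1WT/ApoeKO replicate 1 and Zeb1∆M/ApoeKO replicate 2, against 735 and 809 CPM.

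Markers of other states and cells also varied between libraries. Inflammatory macrophage genes had summed levels of 2496 and 3606 CPM in the Zeb1WT/ApoeKO libraries and 7574, 6652 and 4260 CPM in the Zeb1∆M/ApoeKO libraries. Their members did not share this order. *Nfkbia*, the highest on average, was at 36.4 and 1363 CPM, and at 1.82, 2589 and 2046 CPM, while *Egr1* at 3980 CPM and *Ccl3* at 2539 CPM made up most of the sum in Zeb1∆M/ApoeKO replicate 1. *Ccl4* was at 755 and 573 CPM, and at 0, 334 and 704 CPM, and *Nlrp3* was at 0 in the 3 Zeb1∆M/ApoeKO libraries. Monocyte genes had sums of 1879 and 1432 CPM, and 7837, 2285 and 1881 CPM, of which *Plac8* gave 7832 CPM in Zeb1∆M/ApoeKO replicate 1, and the sums overlapped when scaled by total counts. Endothelial genes had 52.7 and 72.3 CPM against 4.79, 0.140 and 52.3 CPM, where *Kdr* made up the first of these values and *Pecam1* the last. Fibroblast genes had 0.109 and 0 CPM against 3.88, 444 and 2.25 CPM, the value of 444 CPM being *Dcn*, at 19005 counts in Zeb1∆M/ApoeKO replicate 2. No list was tested. Dendritic cell genes (highest for *Cd209a*) ranged from 0 to 434 CPM. B cell genes were at 0 in 4 libraries and 5.36 CPM in Zeb1∆M/ApoeKO replicate 1, smooth muscle genes at 0 and 0.908 CPM in the same libraries, and erythroid genes at 0 to 2.72 CPM and 16147 CPM. The part of these markers in the complement values was not tested.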

How the data were processed

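RNAseq libraries of sorted aortic macrophages, 2 Zeb1WT/ApoeKO and 3 Zeb1∆M/ApoeKO, took their group from the label for genotype. The authors aligned the paired reads with STAR 2.5.3a against GRCm38 and quantified genes with RSEM 1.3.0 (versions per the submitters' processing notes) and GENCODE mouse annotation. The deposited values were RSEM's expected counts, held as whole numbers and not normalized. The kit does not mark strand.

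edgeR 4.0.16 (R 4.3.3) was used on these counts. A filter on low counts (filterByExpr, minimum 10) retained 7905 of the 55487 genes. TMM normalization and the quasi-likelihood test were used without covariates, with Benjamini-Hochberg adjustment over all genes tested and a threshold of 0.05. The standard error is the log2 fold change divided by the root of the F statistic. Log2 CPM used a prior count of 2. Alternatives were DESeq2 1.42.0 with default options, RLE factors, total counts, no filter beyond 1 count, the replicate number as a block, each library left out, and both replicate 1 libraries left out. The spread and correlations without Zeb1∆M/ApoeKO replicate 1 were added after seeing the data. The common dispersion was 6.44.

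Coordinates and exon lengths are from GENCODE M21 (GRCm38), which matched 55141 identifiers without version. Promoters are from RefSeq (GRCm38.p6), for 6 of the 7 genes. Figures used matplotlib 3.10.9. The 7 genes, the other gene lists and the tests were chosen with earlier results of these data known. Genes named were the 7 genes, the 8 most abundant other complement genes (1 of which is not reported here), the 3 genes most like the C1q sum and *C3ar1*, *Zeb1* and the leading markers. Further complement genes and markers, and the motifs, were named after their values were seen.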

Additional observations from a re-analysis of the deposited data

How the results depend on the processing

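All 7 complement genes stayed uncalled under each alternative that could be run, as did the other complement genes. With DESeq2, *C3* and *C3ar1* had no adjusted p and could not be called, nor could any but 8 of the 48 other complement genes. The remaining settings called hardly any gene, so staying uncalled there does not set the complement genes apart. Over all genes, the count of calls moved from 0 to 790 with DESeq2's default options (448 higher, 342 lower in the Zeb1∆M/ApoeKO libraries) and to 2 with both replicate 1 libraries left out, and was 0 in the other settings. Of 76 fitted values of the 7 genes under alternatives, 66 kept their direction and 10 reversed. With both replicate 1 libraries left out, *C1qa* was at −0.07, *C1qb* at −0.19 and *C3ar1* at −0.70. With the replicate number as a block, *C1qc* was at −1.28 and *C3* at −14.97, and the count of calls was 0, with 7 genes at an unadjusted p under 0.05. Zeb1∆M/ApoeKO replicate 3, the only library of its number, does not inform the genotype difference in that fit. For *C3* this sets Zeb1WT/ApoeKO replicate 2, at 7887 counts, against libraries at 0 counts. The deviations of libraries with the same number correlated at 0.24 for number 1 and 0.07 for number 2 across genes, so the numbers do not establish a pairing. When each library was dropped in turn, fitted values ranged from −0.69 to 17.93 for *C1qa*, from 0.22 to 2.85 for *C1qb*, from 0.61 to 2.01 for *C1qc*, from −0.45 to 15.39 for *C3*, from 0.07 to 13.66 for *C3ar1*, from −5.90 to 0.95 for *C5ar1* and from −4.99 to 13.36 for *Cfp*. The highest values of *C1qa*, *C3*, *C3ar1* and *Cfp* are fits without Zeb1WT/ApoeKO replicate 2. In these, the remaining Zeb1WT/ApoeKO library had 0 counts of *C1qa*, *C3* and *Cfp*, so that the fitted values depend on the prior count and are no bounds. Where 1 Zeb1WT/ApoeKO library remained, it was assumed to vary as the Zeb1∆M/ApoeKO libraries do. *C3* was not tested without Zeb1∆M/ApoeKO replicate 3, as it no longer passed the filter. The cause of the other reversals was not tested.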
